A study of Mus musculus with 4 samples.

Results

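The genes described here are the small nucleolar RNA (snoRNA) genes of the mouse stomach arrays, 73 of the 22180 genes compared. They were selected by symbol, Snord or Snora followed by a digit in the platform annotation, among probe sets with 1 gene symbol, and a gene with several probe sets was represented by the one chosen by its highest mean over the 4 arrays. Of the 73, 47 are C/D box genes (Snord) and 26 are H/ACA box genes (Snora). Of the 2 genes with more than 1 probe set, the measured mean decided for Snora33, and the probe sets of Snora19 held the same values. All 73 matched the RefSeq gene table by Entrez identifier and symbol, and 72 are listed there as snoRNA, with Snord73b listed as a small nuclear RNA.

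The RNA came from stomach tissue of FVB mice aged 1 year, kept in a pathogen-free barrier, with 2 arrays labelled Hdc+/+ and 2 labelled Hdc-/-. Hdc encodes histidine decarboxylase, which makes histamine, and the comparison asks how its loss bears on expression in the stomach. The labels do not describe the Hdc allele or the sex of the mice, and although the titles say biological replicates, nothing states that each array is a separate animal, so every p-value measures the spread between these samples. The Hdc probe set read 3.99 and 3.82 on the Hdc+/+ arrays 1 and 2 against 3.77 and 4.06 on the Hdc-/- arrays, so it gave no check of the genotype labels. Gastric identity was plain on every array: the 10 gastric epithelial marker genes averaged from 11.44 to 11.89 on the log2 scale.

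snoRNAs are short RNAs of the nucleolus that pair with ribosomal RNA while ribosomes are being made. C/D box snoRNAs guide 2′-O-methylation by the enzyme fibrillarin, and H/ACA box snoRNAs guide the change of uridine to pseudouridine by dyskerin, while a few act in cutting the ribosomal precursor. In mammals most are not transcribed from promoters of their own but are released from introns of host genes, many of which make ribosomal proteins or long non-coding RNAs with no protein product. By the RefSeq gene positions, 70 of the 73 genes lay inside the span of another gene, 50 of them in a protein-coding gene and 20 in a non-coding one, over 56 different hosts. The other 3 were Snord13, Snord118 and Snord89. The strand of the snoRNA genes was not used in naming hosts.

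Because the hosts supply the promoters, the start sites of 4 non-coding hosts are shown: Snhg12, Snhg16 and Snhg3, which hold Snord99, Snord1b and Snora73b, the members with the largest differences, and Snhg1, which holds Snord22, the C/D box gene with the highest signal. Each window covers 50 bases before and 50 bases after the RefSeq start site in GRCm38.p6, 5′ to 3′ on the transcribed strand. Capitals mark the longest run of C or T of at least 8 bases between 10 bases before and 20 bases after the start, searched on the transcribed strand only. Such a pyrimidine run near the start is a known feature of genes of the translation machinery.
Snhg12 (chr4:132308628-132308727, plus strand): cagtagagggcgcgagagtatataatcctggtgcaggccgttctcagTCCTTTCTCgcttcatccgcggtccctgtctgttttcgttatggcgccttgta
Snhg16 (chr11:116671610-116671709, plus strand): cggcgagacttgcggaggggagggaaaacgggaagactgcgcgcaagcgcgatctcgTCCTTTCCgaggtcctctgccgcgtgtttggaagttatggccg
Snhg3 (chr4:132353637-132353736, minus strand): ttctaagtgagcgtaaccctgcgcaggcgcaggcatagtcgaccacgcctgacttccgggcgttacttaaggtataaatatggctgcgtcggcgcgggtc
Snhg1 (chr19:8723437-8723536, plus strand): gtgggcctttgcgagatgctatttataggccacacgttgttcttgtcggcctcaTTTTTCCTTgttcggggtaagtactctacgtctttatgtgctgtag
The run was 9 bases long in Snhg12 and in Snhg1 and 8 in Snhg16, and the longest in Snhg3 was 5, so no letters are in capitals there. Of 48 start sites of the 44 hosts with an entry, 11 (22.9%) held such a run, against 11.2% of all 32851 start sites in the table. These are matches of letters, not measured sites.

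Nearly all snoRNA genes read higher on the Hdc-/- arrays than on the Hdc+/+ arrays, but none passed the test over all genes, and arrays of one genotype differed from each other almost as much. All 47 C/D box genes and 23 of the 26 H/ACA box genes had a positive log2 difference, Hdc-/- minus Hdc+/+, against 54.1% of all genes. The count of positive C/D box genes was 41 without Hdc-/- array 2, 44 without Hdc+/+ array 2 and 46 without Hdc-/- array 1. The median difference was 0.64 for C/D box genes (quartiles 0.45 and 0.91) and 0.57 for H/ACA box genes (quartiles 0.42 and 0.74), against 0.02 for all genes. In limma's test with adjustment over the 22180 genes, 0 snoRNA genes were called higher and 0 lower, against 0.00451% of all genes called higher and 0% called lower. At an unadjusted limma p under 0.05, 25 of 47 C/D box genes (53.2%) and 9 of 26 H/ACA box genes (34.6%) were higher and 0 were lower, against a background of 3.68% higher and 4.87% lower. The groups stood apart without overlap for 52 members in the higher direction (71.2%, background 21.5%) and for 1 in the lower direction (1.37%, background 17.6%). At least a 2-fold difference was measured for 9 C/D box and 3 H/ACA box genes, and 30 C/D box and 17 H/ACA box genes had log2 differences from 0.4 to 1. In the same higher direction, differences of 2-fold or more were found for 0.649% of all genes. The members were picked out with results of this comparison known, so these shares describe the class and are not a test of it.

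**Figure D1:**
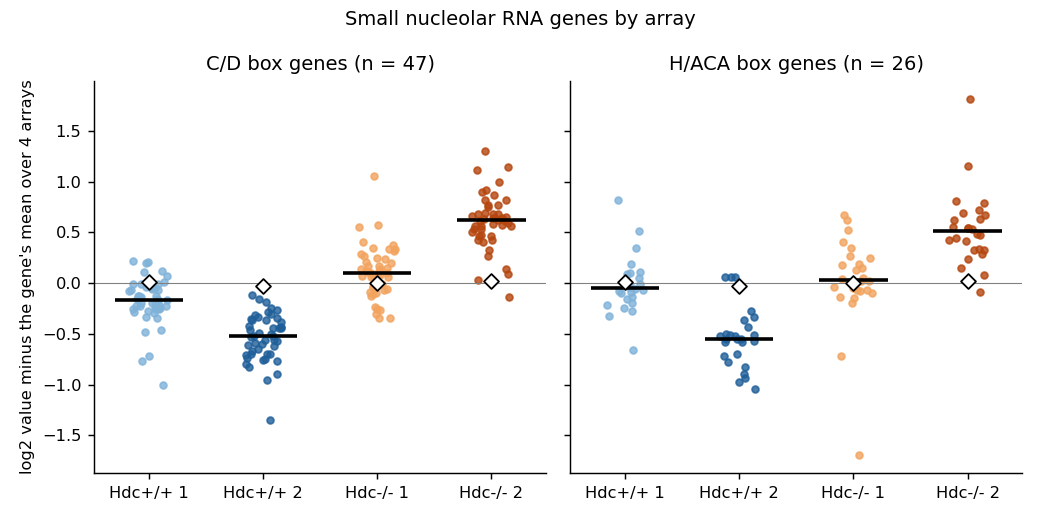
Each point is 1 snoRNA gene on 1 array, as its log2 value minus its mean over the 4 arrays (y axis), with the arrays on the x axis and C/D box and H/ACA box genes in separate panels. Bars are class medians and diamonds are the median over all genes, which stays within 0.03 of 0; both classes are lowest on Hdc+/+ array 2 and highest on Hdc-/- array 2.

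The arrays took the same order in both classes. Around each gene's own mean, the C/D box median read -0.16 and -0.52 on Hdc+/+ arrays 1 and 2, and 0.11 and 0.62 on Hdc-/- arrays 1 and 2. For the H/ACA box genes these medians were -0.05, -0.55, 0.03 and 0.51. Hdc+/+ array 2 was thus the lowest array for 63 of the 73 genes (86.3%) and Hdc-/- array 2 the highest for 66 (90.4%), where over all genes those shares were 29.9% and 29.6%. The complete order, from Hdc+/+ array 2 through Hdc+/+ array 1 and Hdc-/- array 1 to Hdc-/- array 2, held for 31 C/D box genes (66.0%) and 15 H/ACA box genes (57.7%), and for 6.56% of all genes.

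Arrays of the same genotype were as far apart as arrays of different genotypes for some combinations. Within Hdc-/-, array 2 read higher than array 1 for 68 of the 73 genes, with a median difference of 0.52. Within Hdc+/+, array 2 read lower than array 1 for 67 genes, with a median of -0.44. Between genotypes, Hdc-/- array 1 exceeded Hdc+/+ array 1 by a median of only 0.20, in 53 genes, whereas Hdc-/- array 2 exceeded Hdc+/+ array 2 by 1.09, in 72 genes. The size of the class medians therefore depends on which arrays are set against each other. Without Hdc-/- array 2 the medians were 0.40 (C/D box) and 0.31 (H/ACA box), and without Hdc-/- array 1 they were 0.96 and 0.78. Without Hdc+/+ array 2 they were 0.47 and 0.31, and without Hdc+/+ array 1 they were 0.82 and 0.83. The numbers at an unadjusted limma p under 0.05 were 25 C/D box and 9 H/ACA box genes with all arrays. Both were lower without Hdc+/+ array 2 and without Hdc-/- array 2. The share of all genes at that p was not counted in these fits, so the fall cannot be read as particular to snoRNA genes.

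The C/D box and H/ACA box classes had median shifts of similar size, which differed by 0.08 on the log2 scale. On single arrays, around each gene's mean, the C/D box median lay below the H/ACA box median on Hdc+/+ array 1 (-0.16 against -0.05). It lay above it on each other array. The spread of this per-array class difference between replicate arrays was 0.07 (pooled SD, n = 2 per genotype). It is another measure than the 0.08, so the 0.07 is not an error of the 0.08. Without Hdc+/+ array 1 the difference was -0.01 and without Hdc-/- array 1 it was 0.18. The contrast between Hdc-/- array 1 and Hdc+/+ array 1 separated the classes most, at a median of 0.27 for C/D box genes, of which 37 of 47 were higher, and 0.06 for H/ACA box genes, of which 16 of 26 were higher. With 2 arrays a genotype this class difference was not tested.

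Markers of several cell types moved across the same arrays. The 10 gastric epithelial markers had a median difference of -0.02, with 5 positive and 5 negative, and ranged from -0.35 to 1.57. Of these, 2 were higher at an unadjusted limma p under 0.05 (20.0%, background 3.68%), Cblif among them. Cblif read 9.30 and 8.72 in Hdc+/+ against 9.91 and 10.26 in Hdc-/- (1.07, SE 0.25). The 11 measured hepatocyte markers (of 12 listed) averaged 7.55 and 8.99 on the Hdc+/+ arrays and 4.72 and 4.83 on the Hdc-/- arrays, and all 11 were lower in Hdc-/-. The 7 measured pancreatic acinar markers (of 10) averaged 8.71 on Hdc+/+ array 2, where the snoRNA genes were lowest, and from 4.23 to 4.51 on the other arrays. The 12 intestinal markers averaged 6.26 and 8.28 on the Hdc+/+ arrays against 5.03 and 4.97, with 10 lower. Squamous, adipocyte and smooth muscle markers were all lower in Hdc-/-, with medians of -0.60 (11 genes), -1.15 (6 genes) and -0.24 (7 genes). The part of these markers in the snoRNA values was not tested, and in whole tissue a change in the mix of cells cannot be told apart from a change in RNA per cell. Between Hdc-/- arrays 1 and 2, where the snoRNA median differed by 0.52, the marker averages were 5.25 and 5.79 for adipocytes, 3.48 and 3.84 for squamous cells, 8.34 and 8.37 for smooth muscle and 11.89 and 11.67 for gastric epithelium.

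**Figure D2:**
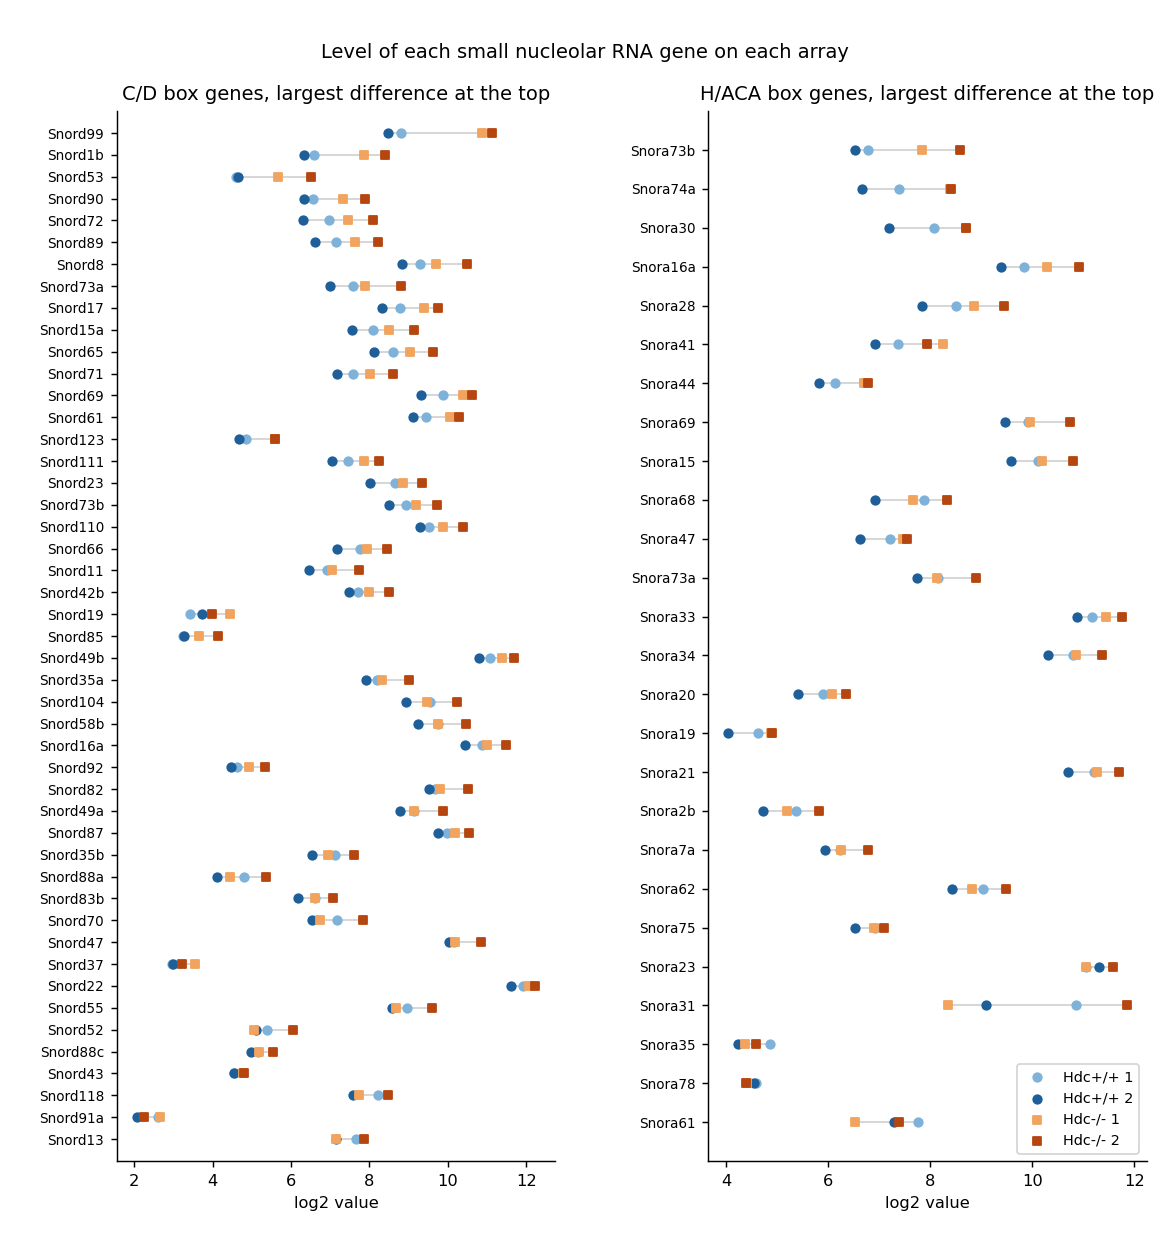
The log2 value (x axis) of each of the 47 C/D box and 26 H/ACA box genes on each array, 1 row per gene, sorted by the difference Hdc-/- minus Hdc+/+; circles are Hdc+/+ arrays and squares Hdc-/- arrays. Signals of different probe sets are not on a common scale, so only positions within a row compare; Snord99 shows the widest clear space between genotypes, 2.05, and Snora31 the widest scatter, 3.51.

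Snord99 (Entrez gene 100217437), a C/D box snoRNA of the Snhg12 gene, had the largest difference among the members. It read 8.81 and 8.47 on the Hdc+/+ arrays and 10.87 and 11.12 on the Hdc-/- arrays. The genotypes were separated by a gap of 2.05, while arrays within a genotype differed by 0.34 and 0.26. The difference was 2.35 (SE 0.20, n = 2 per genotype), that is 5.11-fold. limma's unadjusted p was 3.64e-05 and its adjusted p 0.101. Snord99 ranked 8th of all genes by p and 14th by size in the higher direction. Over 14 alternative settings the adjusted p ran from 0.0471 to 0.558, and it lay under 0.05 in 2 of them, a trended and robust prior (0.0483) and the fit without Hdc+/+ array 1 (0.0471). Leaving out 1 array at a time gave differences from 2.18 to 2.52.

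**Figure D3:**
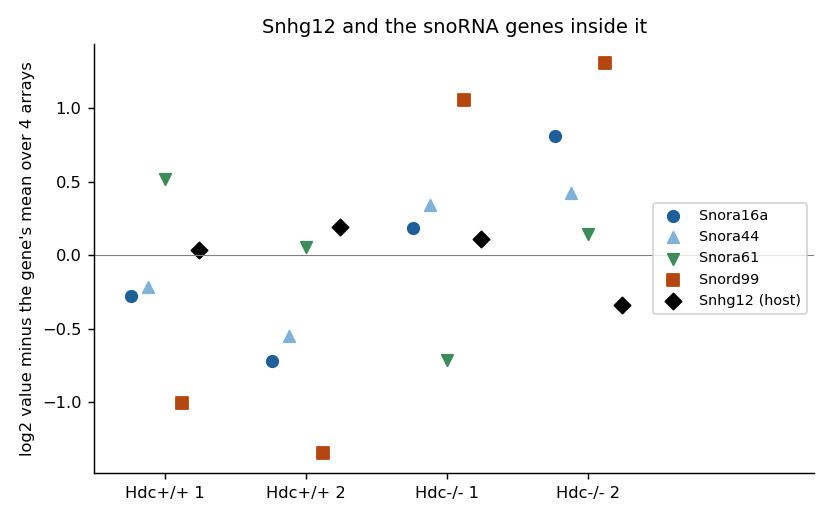
Values on each array (x axis) of the 4 snoRNA genes inside Snhg12 and of Snhg12 itself, as log2 value minus the gene's own mean over the 4 arrays (y axis). Snord99 lies about 1 or more below its mean on both Hdc+/+ arrays and above it on both Hdc-/- arrays, Snora16a and Snora44 move less in the same direction, and Snora61 and Snhg12 do not follow.

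The 4 members inside Snhg12 did not move together. Snora16a read 9.83 and 9.39 on the Hdc+/+ arrays and 10.29 and 10.92 on the Hdc-/- arrays, a difference of 1.00 (SE 0.28, limma adjusted p = 0.451). Snora44 read 6.14 and 5.81 against 6.70 and 6.78, a difference of 0.77 (SE 0.19). Neither overlapped between genotypes. Snora61 had values of 7.75 and 7.29 against 6.52 and 7.38, a difference of -0.57 (SE 0.33, limma adjusted p = 0.685), and its genotypes overlapped. The probe set for the host, Snhg12, read 4.06 and 4.22 against 4.14 and 3.69, a difference of -0.22 (SE 0.21, limma adjusted p = 0.825). From Snora61 to Snord99 the differences spanned 2.92 on the log2 scale, the widest of the 11 hosts that hold more than 1 member. The other spans ran from 0.10 in Kansl2 to 0.98 in Snhg3. The non-coding gene 2410006H16Rik holds 3 members, all C/D box genes, and its own difference was 0.19. Snord65 read 8.59 and 8.13 in Hdc+/+ and 9.04 and 9.61 in Hdc-/- (0.97, SE 0.27), without overlap, and Snord49a read 9.15 and 8.77 against 9.13 and 9.87 (0.54, SE 0.29), with overlap. The third, Snord49b, differed by 0.61.

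The next C/D box genes by size were Snord1b, Snord53, Snord90 and Snord72. Snord1b, inside the non-coding Snhg16, had values of 6.58 and 6.34 in Hdc+/+ and of 7.87 and 8.41 in Hdc-/-, a difference of 1.68 (SE 0.24, limma adjusted p = 0.247) that amounts to 3.21-fold. Snord53, inside the ribosome biogenesis gene Wdr43, read 4.59 and 4.66 against 5.67 and 6.50 (1.45, SE 0.29, adjusted p = 0.332). Both were apart between genotypes by at least 1.00. Snord90, inside the gene of the RNA-binding protein Rc3h2, read 6.57 and 6.33 against 7.32 and 7.90 (1.16, SE 0.24). Snord72, inside the ribosomal protein gene Rpl37, read 6.96 and 6.31 against 7.45 and 8.10 (1.14, SE 0.31). Snord73a, inside Rps3a1, read 7.59 and 6.99 against 7.88 and 8.81 (1.05, SE 0.36), so its gap between genotypes, 0.29, was smaller than its range of 0.93 within Hdc-/-.

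Among the H/ACA box genes Snora73b and Snora74a stood highest. Snora73b is a copy of the U17 snoRNA, which takes part in cutting the precursor of the small ribosomal subunit RNA, and it lies inside Snhg3. It read 6.77 and 6.53 in Hdc+/+ and 7.83 and 8.58 in Hdc-/-, a difference of 1.55 (SE 0.28, limma adjusted p = 0.290) that amounts to 2.93-fold. Its near copy Snora73a, inside the same host, read 8.15 and 7.73 against 8.13 and 8.90, a difference of 0.58 (SE 0.30) with overlapping genotypes. Cross-hybridisation between such copies was not tested. Snora74a, inside Snhg4, read 7.38 and 6.66 against 8.38 and 8.40 (1.37, SE 0.27, adjusted p = 0.308), so the spread lay within Hdc+/+. Snora30 in Srcap read 8.07 and 7.19 against 8.69 and 8.70 (1.06, SE 0.30). Snora28 in Eif5, 8.50 and 7.83 against 8.85 and 9.45, differed by 0.99 (SE 0.31), and Snora41 in Eef1b2, 7.37 and 6.92 against 8.24 and 7.94, by 0.95 (SE 0.22). Snora41 was 1 of 5 members that read higher on Hdc-/- array 1 than on Hdc-/- array 2.

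For 12 of the 73 genes (16.4%, background 6.88%) the gap between genotypes was wider than the range within either genotype. These were the C/D box genes Snord99, Snord1b, Snord53, Snord90, Snord123, Snord17, Snord61 and Snord43 and the H/ACA box genes Snora73b, Snora74a, Snora41 and Snora44. Snord123 in Snhg18 read 4.84 and 4.67 against 5.58 and 5.60. Snord43 in Rpl3 had the smallest gap of the 12, at 0.21, and a difference of 0.24 (SE 0.16).

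The members with the highest signal had differences from 0.13 to 0.64. Snord22, also called U22, read 11.92 and 11.61 in Hdc+/+ and 12.08 and 12.23 in Hdc-/-, a difference of 0.39 (SE 0.19, adjusted p = 0.629). Snord49b read 11.07 and 10.80 against 11.38 and 11.70 (0.61, SE 0.20), and Snord16a in Rpl4 read 10.88 and 10.43 against 11.01 and 11.48 (0.59, SE 0.25). Snord47 in Gas5 differed by 0.40 (SE 0.25) and Snord87 in Snhg6 by 0.49 (SE 0.20). On the H/ACA side, Snora33 in Rps12 (0.57, SE 0.20), Snora34 in Kansl2 (0.56, SE 0.26), Snora21 in Rpl23 (0.52, SE 0.25) and Snora15 in Cct6a (0.64, SE 0.29) did not overlap between genotypes, and Snora23 in Ipo7 did (0.13, SE 0.23). By signal, the 16 members with a mean under 6 had a median difference of 0.46, the 33 from 6 to 9 had 0.72 and the 24 at 9 or more had 0.61. All genes in the same bands had medians of 0.03, 0.02 and -0.05. Across the 73 genes Spearman's rho between the difference and the mean signal was 0.15, and between the difference and the RefSeq length it was -0.03; both rest on the same 4 arrays.

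A few members went against the class. Snora78, inside Snhg9, read 4.59 and 4.54 in Hdc+/+ and 4.41 and 4.39 in Hdc-/-, a difference of -0.16 (SE 0.16, limma adjusted p = 0.829), and it was the 1 member whose genotypes separated in the lower direction. Snora35, inside the serotonin receptor gene Htr2c, read 4.85 and 4.23 against 4.36 and 4.58 (-0.07, SE 0.25), and its sign turned without Hdc+/+ array 1 (0.23) or without Hdc-/- array 1 (0.04). Snora31, inside Tpt1, scattered most: 10.85 and 9.10 in Hdc+/+ and 8.34 and 11.85 in Hdc-/-, a difference of 0.12 (SE 1.18). No other member ranged over more than the 2.65 of Snord99. The 2 members known to have promoters of their own, Snord118 (U8, needed for the large ribosomal subunit RNAs) and Snord13 (U13), differed by 0.21 (SE 0.33) and 0.11 (SE 0.30), and their genotypes overlapped. Snord118 read 8.21 and 7.57 against 7.74 and 8.47, and Snord13 read 7.66 and 7.14 against 7.15 and 7.86. Whether they differ from the members inside hosts was not tested. Snord89, also inside no other gene, read 7.15 and 6.61 against 7.64 and 8.23 (1.05, SE 0.28).

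Grouped by the kind of gene that holds them, the members had the following counts, to be read beside the shares over all genes of 3.68% at an unadjusted p under 0.05 in the higher direction and 21.5% without overlap. The 18 members inside ribosomal protein genes (16 hosts) were all positive, with a median of 0.59, 6 of them at an unadjusted p under 0.05 and 13 without overlap. Snord15a in Rps3 read 8.09 and 7.55 in Hdc+/+ and 8.49 and 9.14 in Hdc-/- (0.99, SE 0.30), next in size in this group after Snord72 and Snord73a.

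The 32 members inside other protein-coding genes (26 hosts) had a median of 0.61, 31 positive, 16 at an unadjusted p under 0.05 and 24 without overlap. Several of these hosts themselves act in ribosome assembly or translation. Snord69, inside the nucleolar gene Gnl3, read 9.89 and 9.31 against 10.39 and 10.61 (0.90, SE 0.24), and Snord19 in the same host read 3.42 and 3.74 against 4.45 and 3.99 (0.65, SE 0.23). Snord110, inside Nop56, read 9.52 and 9.28 against 9.89 and 10.38 (0.73, SE 0.22), so this snoRNA gene and its host, which encodes a protein of the same particles, differed by nearly equal amounts. Snord70, inside the partner gene Nop58, overlapped, at 7.18 and 6.54 against 6.73 and 7.84 (0.42, SE 0.41). The 20 members inside non-coding genes (14 hosts) had a median of 0.69 and the widest span, from -0.57 to 2.35, with 18 positive, 11 at an unadjusted p under 0.05 and 14 without overlap. Snord8, inside Gm26590, read 9.28 and 8.82 against 9.71 and 10.49 (1.05, SE 0.31), and Snord71, inside Gm17344, read 7.58 and 7.17 against 8.01 and 8.59 (0.92, SE 0.26). The kinds of host were not tested against each other.

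**Figure D4:**
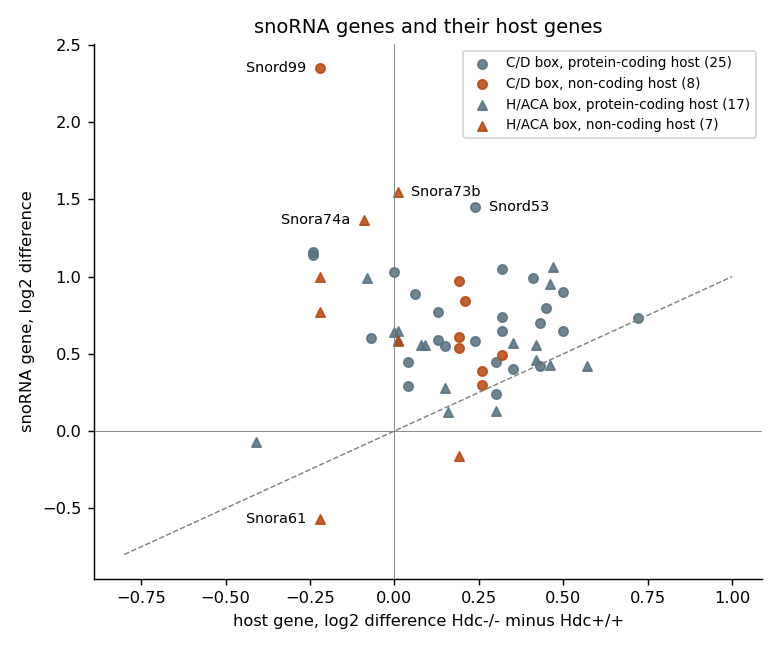
Log2 difference of each snoRNA gene (y axis) against that of its host gene (x axis), Hdc-/- minus Hdc+/+, for the 57 snoRNA genes whose host had a value; the dashed line marks equal differences, shapes give the snoRNA class and colours the kind of host. Of the 57 points, 49 lie above the line, and Snord99 lies farthest from it.

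Host genes had smaller differences than most of the snoRNA genes inside them. Of 43 measured hosts, 36 had a positive difference, with a median of 0.19, and the medians were 0.20 for 34 protein-coding hosts and 0.19 for 9 non-coding hosts. None was called by limma after adjustment, and at an unadjusted p under 0.05, 4 hosts were higher (9.30%, background 3.68%) and 1 was lower (2.33%, background 4.87%). The higher ones were Nop56, a core protein of C/D box particles (0.72, SE 0.24), Rpsa (0.57, SE 0.19), the chromatin remodeller gene Srcap (0.47, SE 0.16) and the elongation factor gene Eef1b2 (0.46, SE 0.17), and Htr2c was lower (-0.41, SE 0.16). The genotypes stood apart without overlap for 23 hosts in the higher direction (53.5%, background 21.5%) and for 1 in the lower (2.33%, background 17.6%). For 7 hosts (16.3%, background 6.88%) the gap in the higher direction was wider than the range within either genotype. That share was close to the 16.4% of the snoRNA genes. The snoRNA gene had the larger difference in 49 of 57 snoRNA and host combinations, with a median of 0.41 over all of them. Some host probe sets were dim: 6 of the 43 hosts, Snhg12, Snhg9, Rpl37 and Htr2c among them, had a mean signal under 4.59, the median of all genes, so their differences were measured at low signal. Over the 37 other hosts, a split made after the data were seen, the snoRNA gene had the larger difference in 42 of 48 combinations, with a median of 0.40, and the host median was 0.26. Across these 57 combinations Pearson's r between the 2 differences was -0.12 and Spearman's rho -0.14; some hosts count more than once, and the values share the same 4 arrays. Host medians on the arrays did not follow the order of the snoRNA genes, at -0.10 and -0.09 on the Hdc+/+ arrays and 0.12 and 0.05 on the Hdc-/- arrays, around each gene's mean.

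Genes of the proteins that bind snoRNAs leaned higher by a smaller amount. Of 11 measured C/D box particle and assembly genes (of 12 listed), 9 had a positive difference (81.8%, against 54.1% of all genes), with a median of 0.23. The listed gene without a value was Fbl, which encodes fibrillarin. Only Nop56 (0.72) was at an unadjusted limma p under 0.05, which is 9.09% of the 11 against a background of 3.68% higher. Its partner Nop58 differed by 0.43 (SE 0.21) and the core gene Snu13 by 0.36 (SE 0.16). All 8 H/ACA box particle and assembly genes were positive, with a median of 0.21, and only Nop10 was at that p (12.5%). Nop10, a core H/ACA protein gene, read 7.78 and 7.67 in Hdc+/+ against 8.33 and 8.39 in Hdc-/- (0.63, SE 0.16, limma adjusted p = 0.408), and Dkc1, which encodes dyskerin, differed by 0.15 (SE 0.21). None of these 19 genes was called after adjustment.

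**Figure D5:**
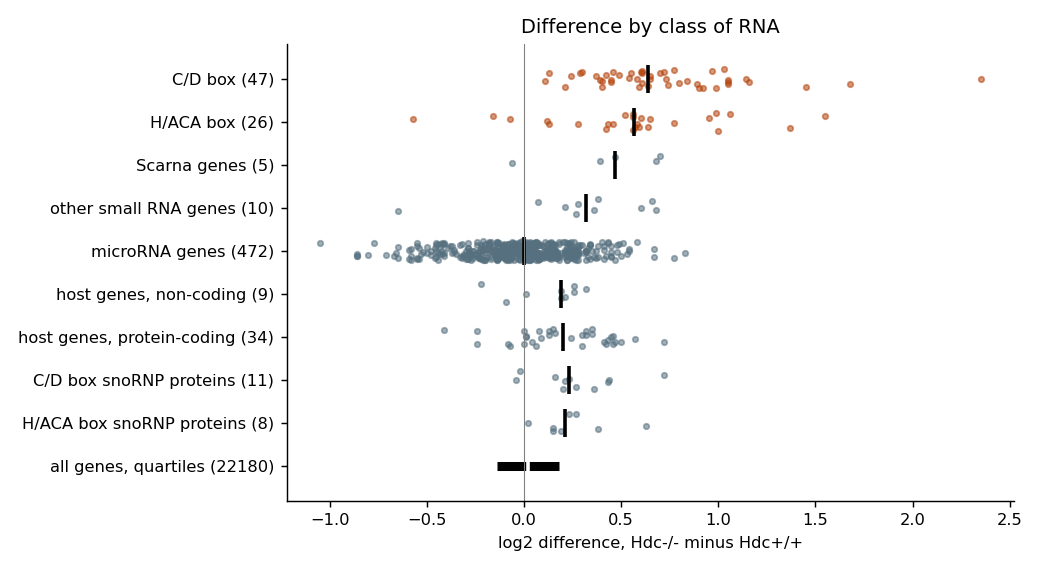
Log2 difference, Hdc-/- minus Hdc+/+ (x axis), of every measured gene in each class of RNA, with the number of genes in brackets; black bars are medians, and the lowest row gives the quartiles and median of all genes. The C/D box and H/ACA box medians of 0.64 and 0.57 lie to the right of the hosts, of the particle proteins and of the microRNA genes, whose median is 0 at a low signal.

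Other small RNAs differed by kind. The 472 genes counted as microRNA genes have a symbol of Mir followed by a digit, and include a few microRNA host genes (symbols ending in hg). They had a median difference of 0 and were positive in 49.2%. An unadjusted limma p under 0.05 was reached by 5 in the higher (1.06%, background 3.68%) and by 14 in the lower direction (2.97%, background 4.87%). Their probe sets were dim, with array medians from 2.80 to 3.00 against a median gene mean of 4.59, so these differences were measured at low signal. Of 5 Scarna genes, whose RNAs guide the same modifications on spliceosomal RNAs in Cajal bodies, 4 were positive, with a median of 0.47. Scarna6 (0.70, SE 0.26), Scarna10 (0.68, SE 0.25) and Scarna2 (0.47, SE 0.18) were at an unadjusted p under 0.05. Of 10 other small RNA genes 9 were positive, with a median of 0.32. Around each gene's mean, their array medians were 0.09 and -0.46 on the Hdc+/+ arrays and -0.04 and 0.32 on the Hdc-/- arrays. The lowest and the highest array were those of the snoRNA genes, but Hdc+/+ array 1 lay above Hdc-/- array 1. Among these 10 genes, Rnu3a, a U3 snoRNA gene that the symbol rule leaves out, read 8.30 and 7.99 against 8.25 and 9.36 (0.66, SE 0.38). Rnu5g, a gene of the U5 spliceosomal RNA, read 2.72 and 2.06 against 3.19 and 2.95 (0.68, SE 0.26) and was at an unadjusted p under 0.05. Terc, the telomerase RNA, which carries an H/ACA domain, was the 1 negative gene, at 4.42 and 4.88 against 3.78 and 4.21 (-0.65, SE 0.24), also at an unadjusted p under 0.05. Rn7sk, the abundant small nuclear RNA that binds the elongation factor P-TEFb, lay between 12.96 and 13.07 on all 4 arrays.

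Probe sets that list several symbols were left out of the 73 and are given only as groups. Of 43 that list a Snord or Snora symbol, 16 list copies of the imprinted Snord116 cluster and hold 1 and the same set of values, with a difference of -0.77. Around their mean these values were 0.68 and 0.08 on the Hdc+/+ arrays and -1.08 and 0.31 on the Hdc-/- arrays, so the genotypes overlapped. The other 27 had a median of 0.65, and 25 were positive. With every probe set tested 8 of them had an unadjusted limma p under 0.05, all higher. The share of all probe sets at that p was not counted, and in the fit over genes it was 3.68% higher and 4.87% lower. For Snora33 the probe set not used differed by 0.66 (SE 0.27) against 0.57 for the one used.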

How the data were processed

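The log2 values were deposited by the authors for 4 arrays; RMA, oligo and Affymetrix Power Tools are named per the submitters' processing notes, without versions or roles. Biotin-labelled cDNA was made from 5.5 ug of total RNA, per the labels' protocols. RMA puts arrays on 1 distribution, so a difference is relative to the other probe sets. The number of arrays limits precision.

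Each of 22180 genes took its brightest probe set with 1 symbol. limma (version 3.58.1, R 4.3.3; lmFit and eBayes, 2 residual and 3.62 prior degrees of freedom) compared genotypes across all genes, with Benjamini-Hochberg adjustment at 0.05; an exact permutation of 2 against 2 gives no p below 0.333. The fit was also run on data simulated from its own prior with independent genes. That run does not cover shifts that many genes of an array share.

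The members and lists were chosen with earlier results of these data known. Named genes are, per class, the 5 brightest, up to 6 per direction with the largest difference at an unadjusted p under 0.05 without overlap (filled to 3 by p), the 3 with the widest range, members of hosts that hold 3 or more, and list genes at an unadjusted p under 0.05. Others were named after their values were seen. Hosts are the shortest gene in the RefSeq table (GRCm38.p6) that spans the member; strand was not used, unlike in the rule as first written.

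Start-site sequences are RefSeq's. Alternatives are named in the closing section.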

Additional observations from a re-analysis of the deposited data

How the results depend on the processing

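The direction of both class medians held in all 14 alternatives: leaving out the dimmest 25% or 50% of genes, averaging probe sets, testing every probe set, quantile, cyclic loess or median centring, a trended and robust prior, the replicate block, a crossed block added after seeing the data, and each array left out. Several of these could not turn the direction. The prior and both blocks leave each gene's difference as it was. Leaving out dim genes or testing every probe set changes only which members or probe sets are counted. Leaving out 1 array gave C/D box medians from 0.40 to 0.96, H/ACA box medians from 0.31 to 0.83 and a class difference from -0.01 to 0.18. In these 4 fits without 1 array the higher counts at an unadjusted p under 0.05 ran from 8 to 36 (C/D box) and from 4 to 13 (H/ACA box), the lower H/ACA box count from 0 to 1, and 0 to 1 members passed after adjustment. With a trended and robust prior 1 member, Snord99, passed, as it did without Hdc+/+ array 1. The labels do not pair the arrays, and deviations of same-numbered arrays correlated at -0.119 over all genes. With the replicate block 20 C/D box and 7 H/ACA box genes were at an unadjusted p under 0.05, and 0 members passed. The crossed block joined Hdc+/+ array 1 with Hdc-/- array 2, and Hdc+/+ array 2 with Hdc-/- array 1. With it these counts were 35 and 18 higher, with 1 H/ACA box gene lower. The members already differed between arrays in that pattern, by medians of -0.44 within Hdc+/+ and 0.52 within Hdc-/- (array 2 minus array 1). The crossed block takes up that spread, so its counts say nothing more about genotype. Among the genes named by rule, leaving out 1 array turned the sign of Snora35 without Hdc+/+ array 1 (0.23) and without Hdc-/- array 1 (0.04; lowest -0.38), of Snora31 without Hdc+/+ array 2 (-0.76) and without Hdc-/- array 2 (-1.63; highest 1.87), and of Snora23 without Hdc-/- array 2 (-0.13; highest 0.40). Of the 47 C/D box genes, 41 to 47 stayed positive in these fits, and of the 26 H/ACA box genes 21 to 24 were positive. Over all genes, 1 was called, 161 without Hdc+/+ array 1, 7 with the replicate block, 5 with quantile normalization or the trended and robust prior, and 0 with each other array left out, the crossed block or every probe set tested. The causes were not tested. Fits without 1 array have fewer residual degrees of freedom, and the lone array of a genotype is assumed to vary like the other genotype.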
